A study of Ovis aries with 20 samples.

Results

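The genes described here are those with more RNA in the ileum than in the jejunum of normally fed pregnant ewes. Of 17683 gene IDs listed in both segments, 153 (0.865%) met the choosing rule and are called the ileum-enriched genes. They were chosen by their FPKM in the normally fed libraries. The rule asked that the mean FPKM of the normally fed ileum plus 1 be at least 2 times the mean of the normally fed jejunum plus 1, and that the lowest of the 5 normally fed ileal libraries lie above the highest of the 5 jejunal ones. FPKM is the number of sequenced fragments of a gene, scaled by its length and by the size of the library. The restricted-fed libraries took no part in the choice, so their values are the independent readout.

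The RNA came from jejunum and ileum of pregnant Hu sheep, a breed from China, at day 115 of gestation, and all samples were labelled as wild type. The 20 libraries form 4 groups of 5: jejunum and ileum of ewes labelled with normal feeding (CON in the sample titles), and jejunum and ileum of ewes labelled with restricted feeding (TR). The labels do not say how much feed was given, which layers of the gut wall were taken, or that each library came from a separate ewe, so a p-value below measures the spread between these libraries. The study set out to compare the transcriptomes of both segments between these feeding groups.

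The jejunum is the main site of nutrient uptake in the small intestine. The ileum, which follows it, takes up bile acids and vitamin B12 and carries more lymphoid tissue in its wall. In mammals some of these tasks rest on genes that are more active in one segment than in the other. The files give each gene only as the word gene and a number, and none of the 18426 IDs matched the sheep RefSeq gene table (0 matches). The 153 genes are therefore described by level and pattern, without names or roles, and the tissue labels could not be checked against known markers of ileum or jejunum. Since the RNA came from whole samples, fewer cells of a type and less RNA per cell cannot be told apart.

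The depth of the libraries, estimated from single-fragment steps among low genes, ranged from 0.901 to 1.27 relative to the first normally fed jejunal library, and from 0.904 to 1.08 among the 10 restricted ones. Among the restricted libraries, jejunal library 2 stood apart from the rest of its group in the genes described here. Ileal library 2 had the lowest median of its group, but ileal library 4, at 9.13 FPKM, came near it. The median levels of these genes in the 2 libraries numbered 2, 7.59 and 8.02 FPKM, lay between those of the other restricted jejunal and ileal libraries. Single genes in them ranged from jejunal to ileal levels. Whether each of these libraries holds only the segment of its label was not tested. The main results are given with and without them.

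In the normally fed libraries, which chose them, the 153 genes had a median group mean of 17.5 FPKM for the ileum, and of 4.37 FPKM for the jejunum. The group means ran from 1.2 to 4979 FPKM in the ileum, where 101 genes reached 10 FPKM and 21 reached 100 FPKM. In the jejunum 39 of the genes had a mean under 1 FPKM, and 2 were listed at 0 in all 5 libraries. The ratio of the rule lay between 2 and 4 for 108 genes, between 4 and 16 for 34, and at 16 or more for 11. Most members were thus expressed in both segments at unequal levels, and the 39 with a mean under 1 FPKM had little or no signal in the jejunum.

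The bounds of the rule cut through a continuous range. The member nearest to the ratio of 2 stood at 2.0023, with mean levels of 1.42 FPKM (ileum) and 0.209 FPKM (jejunum). The nearest gene left out stood at 1.987, with 4.01 FPKM and 1.52 FPKM. Their ileum minus jejunum differences under restriction, on the log2(FPKM + 1) scale, were 0.81 and 1.02. A further 116 genes reached the ratio but had overlapping groups, and 713 had groups that did not overlap but a ratio below 2.

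Under restricted feeding, all 153 genes had a higher mean log2(FPKM + 1) in the ileum than in the jejunum. Among all 17683 genes 60.1% did. The median difference over the 153 genes was 1.116 on the log2(FPKM + 1) scale, with quartiles at 0.78 and 1.77 and a range from 0.24 to 7.15, against a median of 0.033 over all genes. Without both libraries numbered 2 the mean was again higher in the ileum for 153 of 153 genes, against 59.4% of all genes, and the median difference was 1.446. These genes were chosen for the same direction in the normally fed libraries, and the restricted libraries are separate samples.

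**Figure D1:**
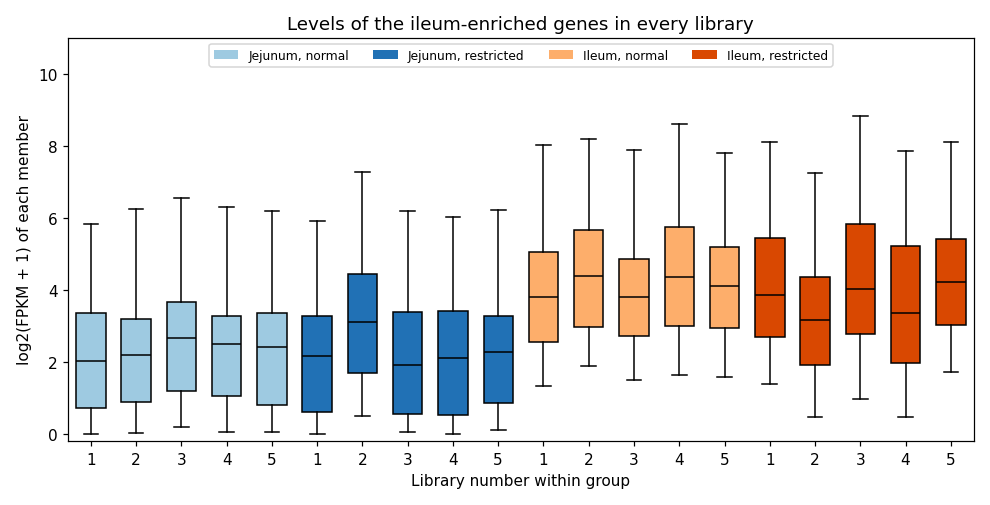
Box plots of log2(FPKM + 1) over the 153 ileum-enriched genes in each of the 20 libraries, with the median as a line, quartiles as the box and the 5th to 95th percentiles as whiskers. The jejunal library 2 under restriction has a median of 3.10, above the 1.91 to 2.27 of the other restricted jejunal libraries, and the ileal library 2 has 3.17, the lowest of the ileal libraries.

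The median level of the 153 genes in a restricted jejunal library was 3.44, 7.59, 2.76, 3.33 and 3.81 FPKM for libraries 1 to 5. In the restricted ileal libraries it was 13.4, 8.02, 15.3, 9.13 and 17.6 FPKM. The groups did not overlap in this median, but jejunal library 2 and ileal library 2 came close to each other. In the normally fed libraries the medians were 3.03 to 5.26 FPKM in the jejunum and 12.9 to 19.7 FPKM in the ileum.

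Many members also kept a segment difference of the size that the rule had asked for. At least a 2-fold ratio of ileum to jejunum, each mean with 1 added, was met by 90 of the 153 genes under restriction, against 1.54% of all genes. Of the 273 genes with such a ratio, members made up 33%. Without both libraries numbered 2, it was met by 118 members, against 2.1% of all genes. The segment difference under restriction was smaller than under normal feeding in 124 of the 153 genes on the log2(FPKM + 1) scale. The restricted difference was a median 0.802 of the normally fed one. Without the restricted libraries numbered 2 it was smaller in 80 genes, with a median of 0.971. Choosing genes by their normally fed difference favours a smaller one elsewhere, so no test was made of this shortfall.

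**Figure D2:**
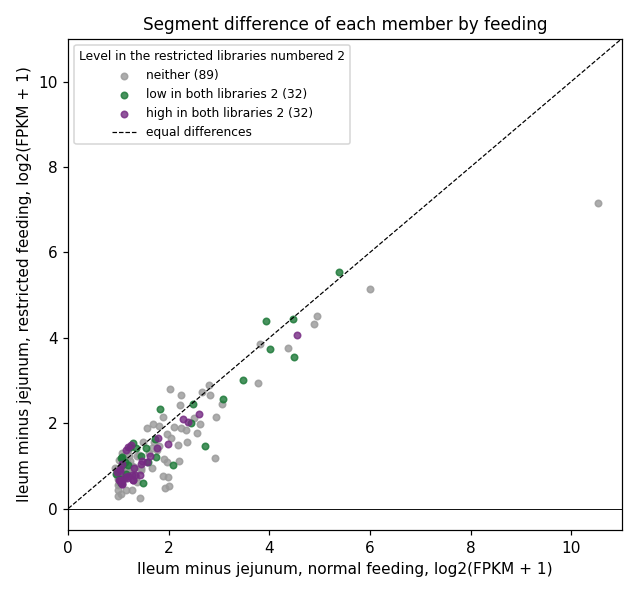
Ileum minus jejunum difference of each of the 153 genes on the log2(FPKM + 1) scale, under normal feeding (horizontal) and under restricted feeding (vertical), 5 libraries per group. All points lie above 0 on the vertical axis and 124 lie below the dashed line of equal differences. Colours mark the level in the restricted libraries numbered 2.

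The difference was then tested in the restricted libraries with limma on log2(FPKM + 1), fitted over the 12640 genes that reached 1 FPKM in 5 or more of the 10 libraries. Of the 153 genes, 137 met this filter and 16 missed it and were not tested. No gene of the table passed at an adjusted p under 0.05 (0 of 12640, or 0.0%), so no member did, and the smallest adjusted p of a member was 0.147. At an unadjusted p under 0.05, 111 of the 153 were higher in the ileum and 0 were lower, against 8.12% of all genes tested that were higher. In either direction 1397 of the 12640 genes had such a p. Without any filter, 0 members passed, against 0.00566% of all genes, and 121 had an unadjusted p under 0.05 with a higher ileal mean, against 7.6%. With the replicate number as a block, 0 passed and 125 had an unadjusted p under 0.05, against 14.3% of all genes.

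The adjusted calls depended on the libraries numbered 2. In the values of these same genes jejunal library 2 was high and ileal library 2 low for its group, and leaving these libraries out favours higher counts. The counts without them therefore describe this dependence and are not a separate test. Without both of them, 53 members passed and were higher in the ileum, against 1.34% of all genes tested, and 109 had an unadjusted p under 0.05, against 11.6%. Here 119 members met the filter, which still asked for 5 libraries with 4 left in each segment. Genes that reached 1 FPKM in the ileum alone thus missed it. Without a filter 47 of the 153 passed, against 0.758% of all genes. With the number as a block as well, 89 members passed, against 4.72% of all genes. Without jejunal library 2 alone 36 members passed, against 0.638% of all genes, and without ileal library 2 alone 32 did, against 0.607%. With weights that lower the influence of libraries far from their group, 88 of the 153 members passed, against 2.6% of all genes tested, and 52 of them also passed without number 2. With weights and no filter 56 passed, against 0.809% of all genes. A single fit of the 20 libraries, which takes a common spread for the 4 groups, gave 60 members, against 1.61%. Its spread comes in part from the normally fed libraries, where the rule favours a small one. This count is therefore not an independent readout.

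The separation of single libraries showed the same dependence. The 5 restricted ileal libraries all lay above the 5 jejunal ones in 14 of the 153 genes, against 1.47% of all genes. Without ileal library 4 it was 30, against 2.35%. Without jejunal library 2 this count was 73, against 4.09%, without ileal library 2 it was 58, against 4.0%, and without both it was 103, against 6.79%. Both conditions of the choosing rule were met in the restricted libraries by 26 genes, or 0.147% of the whole table, of which 9 were members, or 34.6% of the 26 and 5.88% of the 153. Without number 2 the rule was met by 195 genes, or 1.1%, of which 86 were members, 44.1% of the 195 and 56.2% of the 153.

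Deviations from the group means correlated at 0.178 to 0.656 between restricted libraries of equal number, while unequal numbers reached 0.459. Equal numbers are compared as pairs here, although the labels do not state pairs. The main fit and the permutation test over the 10 libraries did not use the pairs. The median difference of the 153 genes between the ileal and the jejunal library of a number was 1.51, 0.03, 1.61, 1.00 and 1.51 on the log2(FPKM + 1) scale for restricted numbers 1 to 5. The ileal library was higher in 152 genes for number 1, against 51.1% of all genes, in 151 for number 3, against 56.2%, in 145 for number 4, against 53.5%, and in 152 for number 5, against 56.6%. For number 2 it was higher in 81 of the 153 genes, or 52.9%, against 51.1% of all genes. In 4 of the 5 numbers nearly every ileum-enriched gene was thus higher in the ileal library, and in number 2 the share was close to that of all genes.

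The size of the difference followed the ratio that chose the genes. With all restricted libraries, its median differed little between genes of low and high jejunal level. The 11 genes with a ratio of 16 or more under normal feeding had a median difference of 4.39 on the log2(FPKM + 1) scale under restriction, against 4.55 under normal feeding. The 34 genes with a ratio from 4 to 16 had 2.06 against 2.41, and the 108 with a ratio below 4 had 0.93 against 1.21. Without both libraries numbered 2 the restricted medians of these sets were 5.3, 2.66 and 1.13. At least a 2-fold ratio was kept by 11 of 11, 33 of 34 and 46 of 108 genes. Grouped by jejunal level under normal feeding, the 39 genes under 1 FPKM showed a median difference of 1.19 under restriction, the 78 genes from 1 to 10 FPKM had 1.1, and the 36 genes at 10 FPKM or more had 1.12. Without number 2 these were 1.63, 1.32 and 1.48, and under normal feeding they were 1.92, 1.37 and 1.28. The added 1 FPKM lowers the differences of genes with low levels.

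The 16 members that missed the filter were also higher in the ileum. Their differences ran from 0.44 to 5.55 on the log2(FPKM + 1) scale, and 11 of them had a mean under 5 FPKM in the restricted ileum. The largest of these differences belonged to a gene that stood at 121, 0.161, 538, 85.9 and 93.4 FPKM in the restricted ileal libraries 1 to 5 and at 0.319, 0.269, 0, 0 and 0.676 FPKM in the jejunal ones. It was at or below 1 FPKM in 6 of the 10 libraries and so missed the filter, although 4 ileal libraries lay at 85.9 FPKM or more.

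The gene with the largest difference among those tested was gene10088, which also had the highest ileal mean and the highest ratio of the rule. In the normally fed ileum it stood at 1712, 7044, 1734, 9426 and 4979 FPKM in libraries 1 to 5, and in the normally fed jejunum at 0.347, 0.75, 1.6, 4.28 and 3.24 FPKM. In the restricted ileum it stood at 7937, 2.78, 3946, 799 and 3062 FPKM. Here 4 libraries reached 799 FPKM or more, while library 2 lay within the range of the jejunum. In the restricted jejunum gene10088 stood at 7.17, 29.8, 0.745, 0.204 and 8.64 FPKM, so that in number 2 the jejunal library held more of it than the ileal one.

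The difference of gene10088 under restriction was 7.15 ± 1.9 on the log2(FPKM + 1) scale (SE, limma, adjusted p = 0.21), and an exact two-sided permutation test over the 10 libraries gave p = 0.0317, where the smallest possible p is 0.00794. Within numbers the ileal library was higher in 4 of 5, and an exact two-sided test over the sign changes of the 5 differences gave p = 0.125, where the smallest possible p is 0.0625. The genes printed with an ID were picked by the rank of this difference in the same libraries. Their permutation p-values are therefore descriptive and not a separate test. Without both libraries numbered 2 the difference of gene10088 was 9.69 ± 0.854 (SE, limma, adjusted p = 0.00264). The gene made up much of the summed FPKM of the 153 genes. Together these genes took 3.04% ± 1.32 (SD, n = 5) of the summed FPKM of the normally fed ileum and 2.4% ± 1.06 of that of the restricted ileum, and 1.93% ± 0.549 and 1.71% ± 0.551 without gene10088. In the jejunum their share was 0.565% ± 0.0704 under normal and 0.656% ± 0.273 under restricted feeding, and without restricted library 2 the latter was 0.536% ± 0.0486 (SD, n = 4), below the normally fed mean. Without library 2 the share in the restricted ileum was 2.75% ± 0.829.

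The second largest difference among the tested members was that of gene26739, below that of the untested gene just described. It stood at 76.6, 4.44, 403, 28.9 and 189 FPKM in the restricted ileal libraries 1 to 5. In the restricted jejunum it stood at 0.118, 6.32, 0.178, 0 and 0.802 FPKM. Again jejunal library 2 was the highest of its group, ileal library 2 the lowest of its own, and these 2 values overlapped while the other 8 did not. The difference was 5.15 ± 1.06 (SE, limma, adjusted p = 0.147; exact two-sided permutation test, p = 0.0159, and p = 0.125 within numbers). Since this gene too was picked by its difference in these libraries, the permutation p-values are descriptive. It missed the filter when both libraries numbered 2 were left out, since no remaining jejunal library reached 1 FPKM. Without a filter its difference was then 6.54 ± 0.736 (SE, limma, adjusted p = 0.00927).

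At the other end stood gene19639, with the second lowest difference of the tested members. In the restricted ileum it stood at 168, 70.7, 282, 149 and 148 FPKM and in the restricted jejunum at 90.4, 188, 136, 115 and 96.4 FPKM. Jejunal library 2 was the highest and ileal library 2 the lowest of its group, and the groups overlapped through these 2 libraries only. The difference was 0.30 ± 0.333 on the log2(FPKM + 1) scale (SE, limma, adjusted p = 0.848; exact two-sided permutation test, p = 0.437). Without both libraries numbered 2 it was 0.73 ± 0.234 (SE, limma, adjusted p = 0.158), and with the number as a block as well it passed (limma, adjusted p = 0.0367). It was 0.46 without jejunal library 2 alone, 0.57 without ileal library 2 alone, 0.20 without jejunal library 1 and 0.08 without ileal library 3, and passed in none of these 4 fits. Its restricted jejunum, at 125 ± 39.3 FPKM (SD, n = 5), lay above the normally fed one, at 56.2 ± 6.64 FPKM, in each library.

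The lowest difference was that of gene10857. It stood at 14.5, 9.22, 10.2, 2.87 and 19.2 FPKM in the restricted ileum and at 12.8, 29.2, 0.932, 8.69 and 6.81 FPKM in the restricted jejunum. Here the groups overlapped throughout, and the overlap did not come from number 2 alone. The difference was 0.24 ± 0.672 (SE, limma, adjusted p = 0.966; exact two-sided permutation test, p = 0.754), and it turned to -0.32 without restricted jejunal library 3 (limma, adjusted p = 0.946). With both libraries numbered 2 left out it was 0.69 (limma, adjusted p = 0.687). Among the tested members this was the only one whose direction turned when 1 library was left out.

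**Figure D3:**
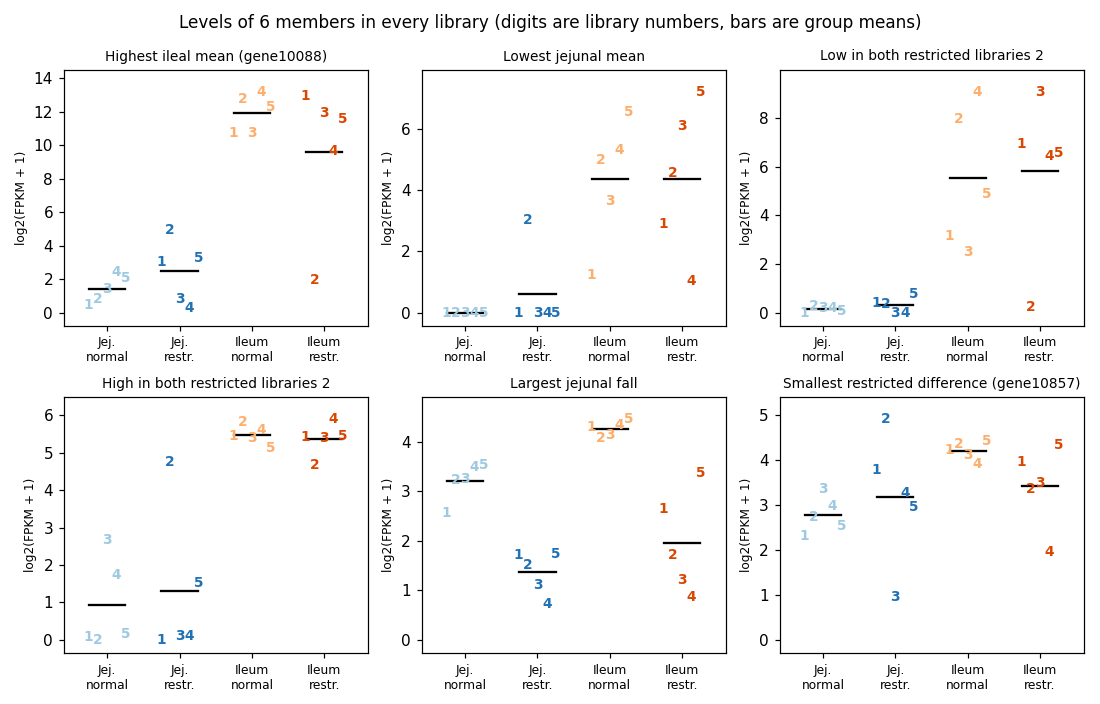
log2(FPKM + 1) of 6 ileum-enriched genes in every library, with the library number as the symbol and group means as bars, 5 libraries per group. In gene10088 the ileal library 2 under restriction lies at the level of the jejunum, while in the gene labelled as high in both restricted libraries 2 the jejunal library 2 lies near the ileal ones.

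The restricted libraries numbered 2 were next set against the others, gene by gene. Jejunal library 2 was the highest of its group in 107 of the 153 genes, or 69.9%, against 34.0% of all genes. In 45 of the 153 its gap to the next library was more than 0.71 of the group's range, the 95% bound of Dixon's outlier test for 5 values, against 3.47% of all genes. Ileal library 2 lay below the other 4 ileal libraries in 66 of the 153, or 43.1%, against 24.3% of all genes. Both held in 31 genes, or 20.3%, against 2.62% of all genes. Jejunal library 2 lay above ileal library 2 in 72 of the 153, against 43.7% of all genes. Ileal library 4 was also low: it was the lowest of its group in 69 of the 153 genes, or 45.1%, against 21.1% of all genes.

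To compare genes of different abundance, each value was placed between the mean of the normally fed jejunum, set to 0, and that of the normally fed ileum, set to 1, on the log2(FPKM + 1) scale. The median position of the 153 genes in the restricted jejunum was -0.09, 0.43, -0.08, -0.11 and 0 in libraries 1 to 5. In the restricted ileum it was 0.89, 0.54, 1.13, 0.67 and 1.02. Library 2 of the jejunum was thus the only one of its group near the middle, with 66 of the 153 genes past 0.5, against 6 to 15 genes in the other 4. In ileal library 2, 78 of the genes lay past 0.5, in library 4 it was 86, and in libraries 1, 3 and 5 it was 115 to 146.

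The members were spread widely in the libraries numbered 2. In both libraries 32 of the 153 genes lay below 0.25, near or below the mean of the normally fed jejunum. Another 32 lay above 0.75 in both, near or above the mean of the normally fed ileum. Genes lower under restriction in both segments can also count as low on this scale. The gene with the highest jejunal mean was one, at 322 FPKM in ileal library 2 against 93.2 to 194 FPKM in the restricted jejunum. Of the remaining 89, 26 lay between these bounds in both. These sets were formed after the values were seen and were not tested.

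**Figure D4:**
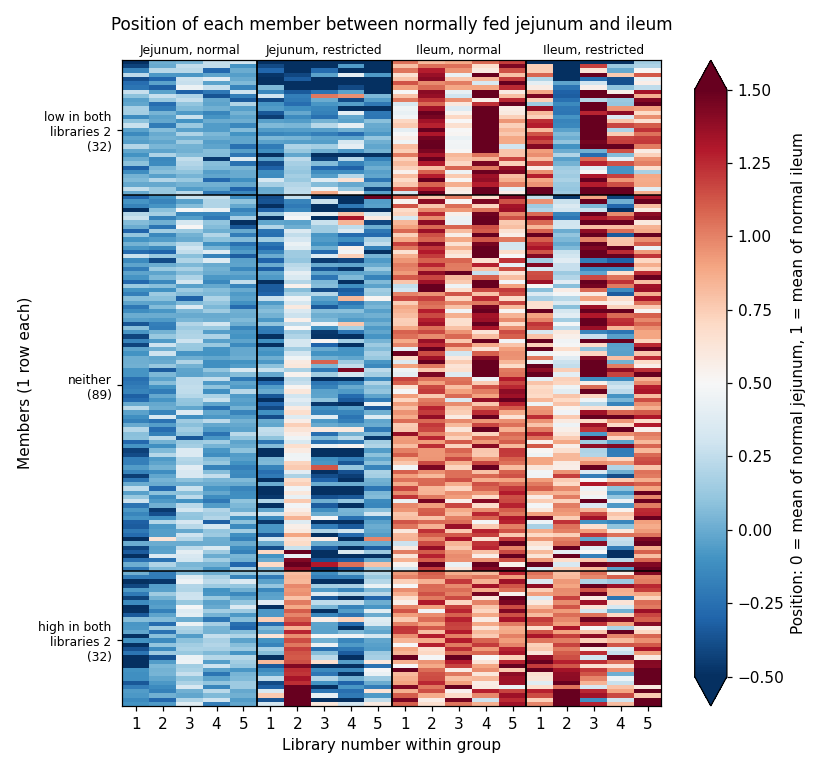
Position of each of the 153 genes (rows) in the 20 libraries (columns), where 0 is the mean of the normally fed jejunum and 1 that of the normally fed ileum on the log2(FPKM + 1) scale; colours are capped at -0.5 and 1.5. Lines part the 32 genes low in both restricted libraries 2, the 89 of neither kind and the 32 high in both.

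The 32 genes low in both libraries had a median level of 2.05 FPKM in jejunal library 2 and 2.21 FPKM in ileal library 2. In the other restricted libraries their median was 1.79 to 3.46 FPKM in the jejunum and 12.8 to 20.4 FPKM in the ileum. The gene of this set with the highest ratio of the rule was the untested one described above, at 0.269 FPKM in jejunal and 0.161 FPKM in ileal library 2. These levels in the libraries numbered 2 are what chose the set.

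The 32 genes high in both libraries had a median of 16.6 FPKM in jejunal library 2 and 16.8 FPKM in ileal library 2. In the other restricted libraries their median was 2.87 to 5.2 FPKM in the jejunum and 7.05 to 19 FPKM in the ileum. The gene of this set with the highest ratio stood at 0, 26, 0.0766, 0.0822 and 1.88 FPKM in the restricted jejunum and at 42.3, 24.6, 41, 58.9 and 42.4 FPKM in the restricted ileum. Its difference was 4.07 ± 0.814 on the log2(FPKM + 1) scale (SE, limma, adjusted p = 0.147), and 5.11 ± 0.329 without number 2 (SE, limma, adjusted p = 0.000845). This set too was chosen by its levels in the libraries numbered 2. Leaving out jejunal library 2 therefore favours a larger difference and a smaller p-value in its genes, and the fit without number 2 is not a separate test.

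The other libraries are given for both sets as a description, and the normally fed ones had been used by the choosing rule. Of the 32 genes low in both libraries numbered 2, 21 stood higher in normally fed ileal libraries 2 and 4 than in libraries 1, 3 and 5, as did 3 of the 32 high ones, 39 of the other 89 and 63 of all 153, against 18.2% of all genes. The medians of the low set were 12.5, 28.8, 13.3, 27.8 and 18.4 FPKM in normally fed ileal libraries 1 to 5, and those of the high set 11.3, 11.7, 13.7, 10.2 and 16.2 FPKM. Restricted ileal library 3 was the highest of its group in 19 of the 32 low genes and in 7 of the 32 high ones, against 23.5% of all genes. No test of the difference between the sets was made. Among the normally fed jejunal libraries, library 3 was the highest in 22 of the 32 high genes and in 78 of all 153, against 20.4% of all genes.

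The genes with little or no jejunal signal showed the jejunal library 2 most plainly. The 2 members listed at 0 in all normally fed jejunal libraries were also listed at 0 in restricted jejunal libraries 1, 3, 4 and 5, and stood at 7.13 and 11.5 FPKM in library 2. In the restricted ileum the first of them stood at 6.51, 22.8, 67.6, 1.05 and 149 FPKM, and in the normally fed ileum at 1.35, 31.2, 11.7, 39 and 93.7 FPKM. The other stood at 32.1, 10, 86.8, 52.7 and 44 FPKM in the restricted ileum, where its library 2 was the lowest and below jejunal library 2. Over the 11 genes with a ratio of 16 or more, the median level was 6.32 FPKM in restricted jejunal library 2 and 0 to 0.689 FPKM in the other 4, and 2.89 FPKM in restricted ileal library 2 against 43.9 to 86.8 FPKM in the others.

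The variation between libraries of a group was larger in the restricted than in the normally fed libraries. The median SD of log2(FPKM + 1) over the 153 genes was 0.733 for the restricted and 0.461 for the normally fed ileum, and 0.568 and 0.269 in the jejunum. Over genes of the whole table with a group mean of at least 1 on that scale, the median SDs were 0.304 and 0.229 in the ileum and 0.276 and 0.183 in the jejunum. Without library 2 the median SDs of the 153 genes under restriction were 0.589 in the ileum and 0.344 in the jejunum, and those of all such genes 0.264 and 0.222. The rule favours a small spread in the normally fed libraries, since it asks for groups that do not overlap.

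Levels under the 2 feeding regimes were then set side by side within each segment. This comparison shares the normally fed libraries with the rule, which picked genes high in the normally fed ileum and low in the normally fed jejunum, so it is a description without a test. In the ileum the median difference, restricted minus normal, was -0.22 on the log2(FPKM + 1) scale, and 106 of the 153 genes had a lower mean on that scale under restriction, against 55.4% of all genes. Without restricted library 2 it was -0.11, with 84 genes lower, against 57.4%. In the jejunum the median difference was 0.10, with 64 genes lower, against 53.9% of all genes. Without restricted library 2 it was -0.10, with 98 lower, against 57.6%, so the sign in the jejunum rested on that library.

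Most members differed by less than 2-fold with feeding. In the ileum a mean lower by 2-fold was still more frequent among them than among all genes, a direction that the choosing rule favours. In the ileum 15 of the 153 genes had a mean log2(FPKM + 1) lower by 1 or more under restriction, a 2-fold difference on that scale, against 0.481% of all genes, and 0 had one higher by as much, against 0.368%. Without library 2 these counts were 15, against 0.475%, and 5, against 0.82%. All 5 restricted ileal libraries lay below all 5 normally fed ones in 7 genes, against 1.63% of all genes, and above them in 0, against 0.407%. Without library 2 they were again 7, against 2.5%, and 0, against 0.826%. In the jejunum 2 genes lay wholly below and 3 wholly above, against 1.78% and 0.594%, and without library 2 these were 4 and 3, against 2.73% and 1.25%. The jejunal mean was lower by at least that much in 4 genes and higher in 4, against 0.633% and 0.249%, and without library 2 in 8 and 0, against 0.611% and 0.385%.

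The mean log2(FPKM + 1) of gene10088 in the ileum differed by -2.35 under restriction, the lowest difference of the members, and by -0.42 without library 2, which stood at 2.78 FPKM. The gene with the second lowest ileal difference, -2.30, had the lowest one without library 2, -2.23, and also the lowest jejunal difference, -1.85. It stood at 18.7, 15.8, 16.5, 19.1 and 21 FPKM in the normally fed ileum against 5.22, 2.27, 1.32, 0.83 and 9.33 FPKM in the restricted ileum. In the jejunum it stood at 4.89, 8.31, 8.48, 10.2 and 10.6 FPKM against 2.29, 1.84, 1.15, 0.661 and 2.34 FPKM. The feeding groups did not overlap in either segment, and this was the only one of the 153 genes with non-overlapping lower levels in both, against 0.39% of all genes. Its difference between the segments under restriction was 0.60 ± 0.445 on the log2(FPKM + 1) scale and did not pass (SE, limma, adjusted p = 0.705).

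The gene with the second highest ileal mean also had the highest jejunal mean. Its ileal level was 899 ± 342 FPKM under normal and 407 ± 131 FPKM under restricted feeding (SD, n = 5). In the jejunum it stood at 334 ± 60.3 FPKM under normal and 149 ± 41 FPKM under restricted feeding. Both segments were thus lower under restriction, and the difference between the segments was 1.35 on the log2(FPKM + 1) scale under normal and 1.42 ± 0.276 under restricted feeding (SE, limma, adjusted p = 0.147).

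With all 5 libraries, the highest ileal difference between restricted and normal feeding was 0.64 on the log2(FPKM + 1) scale, and 1.05 for the same gene without restricted library 2. That gene stood at 129, 18.1, 91.3, 16.6 and 173 FPKM in the restricted ileum against 20.5 to 84.3 FPKM in the normally fed one, with overlapping groups. Without library 2 the highest ileal difference, 1.73, was that of the untested gene described above, which was 0.32 with it. The highest jejunal difference was 1.12, and 0.91 without library 2, in a gene at 5.03, 19.4, 11.8, 14.4 and 6.92 FPKM in the restricted jejunum against 3.16 to 6.31 FPKM in the normally fed one. Its jejunal groups overlapped through restricted library 1 alone. In the restricted ileum it stood at 49.3, 15.4, 88, 95.2 and 46.6 FPKM, where library 2 again lay below the highest jejunal value.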

How the data were processed

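For every library the authors deposited gene IDs with FPKM values, per the file headers. Trizol and an NEBNext Ultra kit were used for extraction and libraries, per the labels' protocols. For the aligner, counting tool, build and annotation, nothing is given in the sources used here. Sample titles and the treatment characteristic gave groups and numbers, since the general treatment note names restricted feeding for every library. The jejunal tables list 18058 IDs and the ileal ones 18051.

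From the FPKM values, log2(FPKM + 1) was tested with limma 3.58.1 (R 4.3.3) with a mean-variance trend, keeping genes that reached 1 FPKM in 5 or more libraries and adjusting p-values by Benjamini-Hochberg over all genes tested. Where a filter was used, it stayed at 5 libraries also when libraries were left out. On simulated data for ileum against jejunum under restriction (12640 genes, 200 changed), 62% of the genes given a 2-fold change and 87% of those given a 4-fold change were recovered, and 9 unchanged genes passed. The simulated noise was drawn for each gene and library on its own. Shifts shared by many genes of a library, as in those numbered 2, were not simulated, so recovery under such shifts was not tested. Fold changes on this scale understate low genes. The number of fragments behind a value is unknown, and relative depth came from steps among genes below 0.08 FPKM.

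Deviations from the group means correlated, across 12640 genes, at 0.178 to 0.656 between restricted libraries of equal number, all above 0.1. Unequal numbers reached 0.459, and the labels do not state pairs. Equal numbers were taken as pairs in the fits with a block and in the exact test within numbers. The main fit and the permutation test over the 10 libraries left the number out. Marker lists could not be applied to IDs without names. A fold was taken on FPKM + 1, and a value of 0 means that the gene is listed at 0. Alternatives were another pseudocount, filter or scaling, the block, a fit of all libraries, library weights, and leaving out libraries. The exact test within numbers, and the feeding differences, shares and spreads without number 2, were added after seeing the data. The members, the comparisons and the rule for printed IDs were chosen with earlier results of these data known. IDs are printed for the 2 tested members with the largest and the 2 with the lowest segment difference under restriction; the others are described by rank, and the sets by level in the libraries numbered 2, with their examples, were chosen after their values were seen.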

Additional observations from a re-analysis of the deposited data

Results flagged for a closer look

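The restricted jejunal library 2 lay further from the other 4 libraries of its group than Dixon's test allows at the 95% level in its median level of the 153 genes (7.59 FPKM), in their share of the summed FPKM (1.14%), in the number of genes past the middle between jejunum and ileum (66) and in their median position (0.43). It was also far above the others in gene10088 (29.8 FPKM), in gene26739 (6.32 FPKM) and in the example gene of the set high in both libraries numbered 2 (26 FPKM). The same held in the 2 genes listed at 0 elsewhere in the jejunum (7.13 and 11.5 FPKM), where any value above 0 would pass. Over single genes this held in 45 of the 153, against 3.47% of all genes. The bound is set so that chance passes about 1 in 20 groups. In these FPKM values 10.7% of all genes passed it in the restricted jejunum, with any library on either side, and 8.57% to 10.9% in the 4 groups. Its relative depth was 1.01, within the 0.904 to 1.08 of the restricted libraries.

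By the same test, normally fed jejunal library 3 was far from its group in the share of the summed FPKM (0.686%, against 0.503% to 0.555% in the others), and restricted ileal library 3 in the example gene of the set low in both libraries numbered 2 (538 FPKM, against 0.161 to 121 FPKM).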

How the results depend on the processing

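The higher ileal level under restriction kept its direction for the median of all 153 genes, which was 1.116 and ran from 1.062 to 1.29 (log2) with 1 library left out, and was 1.446 without both libraries numbered 2. The 111 members with an unadjusted p under 0.05 stayed within 1.5 times in all 22 alternatives (78 to 144, and 89 to 114 with 1 library left out). The 0 members that passed became 60 when the 20 libraries, including those of the rule, were fitted together. They became 88 with weights per library, 53 without number 2 and 89 without it with a replicate block. They became 47 without number 2 and no filter and 56 with weights and no filter, both added after seeing the data, and 0 to 36 with 1 library left out. Over all genes the 0 became 307, 477, 244, 815, 200 and 222 in these fits in the same order, 1 with no filter, and 0 to 129 with 1 library left out. The replicate block alone left both counts at 0. The 14 genes with separate libraries became 103 without number 2, and 14 to 73 with 1 library left out, including 30 without restricted ileal library 4. Among the named genes, gene10857 turned to -0.32 without restricted jejunal library 3, which held its lowest jejunal value, and reached 0.67 without library 2. Adjusted p ran from 0.00231 to 0.442 for gene10088, 0.00576 to 0.397 for gene26739, 0.0367 to 0.983 for gene19639 and 0.522 to 0.999 for gene10857. Gene26739 missed the filter without number 2. Unknown fragment counts limit what can be said of members below 1 FPKM.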
